A study of Mus musculus with 8 samples.

Results

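The RNAs described here are 10 gene rows chosen by name, namely the most counted row of the table, ENSMUSG00000119584, and Malat1, Neat1, Meg3, Rian, Mirg, Kcnq1ot1, Miat, Rmst and Snhg11, out of 56980 gene rows. The first was chosen because it had the most counts, so its rank is not a finding. The RNAs were counted in cultured oligodendrocyte progenitors, which divide and can mature into the cells that make myelin. The cells came from cortices of wild-type C57BL/6 pups of either sex, aged 6 to 8 postnatal days, and were captured on dishes by an antibody against PDGFRα. In low glucose (LG) cultures the medium was lowered in steps to 2.5 mM glucose by day 3, and high glucose (HG) cultures stayed at 25 mM. Both kinds were grown in 10 ng/mL PDGF-AA, a growth factor for these cells, and were harvested on day 5. Each group has 4 libraries, numbered 1 to 4, made with an mRNA kit. The labels speak of independent preparations, but in each group replicates 1 and 2 carry 1 common code, so the 4 libraries of a group may come from 3 preparations. The p-values then measure the spread between libraries.

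Long noncoding RNAs are transcripts that are not translated into a known protein, and many of them stay in the nucleus. Malat1 gathers in nuclear speckles, where splicing factors are stored, and Neat1 is the scaffold around which paraspeckles form. Meg3, Rian and Mirg come from the maternal chromosome of the imprinted Dlk1-Dio3 region, and Kcnq1ot1 comes from the paternal chromosome, where it silences imprinted neighbours. Miat, also called Gomafu, is a nuclear RNA of neural cells, Rmst is a neural RNA known in human cells to bind SOX2, and Snhg11 is a host gene of small nucleolar RNAs.

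An mRNA kit captures RNA by its stretches of A, so the longest run of A inside the longest transcript is shown for Malat1, Rian and Kcnq1ot1, in which it reached 12 bases or more. The sequences were read on the transcript strand from the GENCODE M21 annotation of GRCm38, 5′ to 3′, and capitals mark the run.
Malat1: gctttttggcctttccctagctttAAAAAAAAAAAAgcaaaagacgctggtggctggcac
Rian: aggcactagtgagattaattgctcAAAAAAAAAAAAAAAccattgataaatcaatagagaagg
Kcnq1ot1: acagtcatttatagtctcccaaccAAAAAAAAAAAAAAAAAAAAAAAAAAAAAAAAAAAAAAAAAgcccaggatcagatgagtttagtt
The run was 12 bases long in Malat1, where 298 bases followed it, 15 in Rian and 41 in Kcnq1ot1, which held 8 runs of 12 or more. Runs of 12 or more were present in 1939 of 18424 tested genes with a transcript (10.5%). Longer transcripts hold such runs more easily, and a run as long as the member's was found in 24.4% of transcripts of like length for Malat1 and 12.9% for Rian. For Kcnq1ot1, of 93092 bases, only 3 transcripts were of like length, its own included, so the value of 33.3% allows no comparison. The longest run was 7 bases in Neat1, 8 in Rmst and Snhg11, 5 in Mirg and 4 in Miat. These letters describe the transcripts, and whether any run was used in capture was not tested. Malat1 is known to lack an ordinary poly(A) tail, since its 3′ end is cut by RNase P ahead of a tRNA-like RNA and closed by a genomically encoded A-rich tract. The run shown for Malat1 lies near the end of the annotated transcript, at bases 6674 to 6685 of 6983. It may therefore be this tract at the end of the mature RNA and not an internal run, which was not tested.

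Total counts ran from 53869166 to 65733928 in LG libraries and from 50864130 to 61915909 in HG libraries. The labels give a depth of 15000000 to 30000000 paired-end reads per sample, fewer than these totals. Whether the mates of a pair were counted separately is not given in the sources used here, and if they were, intervals from the counts are too narrow. Markers of oligodendrocyte progenitors were high, with Olig1 at 2460, Pdgfra at 1770 and Sox10 at 537 CPM (the count scaled by the total of its library) on average. The summed level of 10 neuron markers was 1260 to 1340 CPM in LG and 1310 to 1500 CPM in HG. Map2 was the highest at 874 CPM, followed by Gap43 at 198, Dcx at 191 and Tubb3 at 33.9 CPM. The other neuron markers were lower, from Syt1 at 16.2 CPM to Rbfox3 at 1.92 and Stmn2 at 0.104 CPM. The summed level of 9 astrocyte markers was 710 to 1950 CPM in LG and 778 to 1890 CPM in HG, and it followed the preparations, with 1790 to 1950 CPM in numbers 1 and 2 and 710 to 837 CPM in numbers 3 and 4. Microglial markers summed to 2.21 to 3.59 CPM in LG and 2.27 to 2.91 CPM in HG, endothelial markers to 5.84 to 7.55 CPM in LG and 4.93 to 6.58 CPM in HG, and fibroblast markers to 0.236 to 0.416 CPM in LG and 0.128 to 0.471 CPM in HG. Cx3cr1, of microglia, and Cldn5, of endothelium, were at 0 in every library.

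Judged by counts not scaled for length, the label of abundant noncoding RNAs held for few of the members. By mean CPM, ENSMUSG00000119584 ranked 1 of 56980 rows and Malat1 193, and then came Miat at 3888, Rian at 7698, Kcnq1ot1 at 9615, Meg3 at 10523, Neat1 at 12458, Snhg11 at 15008, Mirg at 16457 and Rmst at 23108. The 9 members other than ENSMUSG00000119584 together made up 0.0426% to 0.0714% of the counts in LG libraries and 0.0512% to 0.0913% in HG libraries. Levels of different genes can be compared only per length. Capture by stretches of A may also differ between genes, which was not tested, so this is an order of counts. On the scale of CPM per kilobase of exon Malat1 was highest, with 66.4 ± 14.2 in LG and 83.7 ± 24.6 in HG (SD, n = 4 each). Miat followed at 6.93 ± 1.71 in LG and 6.59 ± 1.67 in HG, and Rian at 1.30 ± 0.441 in LG and 1.23 ± 0.209 in HG. Meg3 was at 0.446 ± 0.126 in LG and 0.472 ± 0.0756 in HG on the same scale. Over all 8 libraries each of these stood clear of its neighbour in the order. Below them Neat1, with a mean of 0.142, did not separate from Kcnq1ot1 at 0.132, nor Kcnq1ot1 from Snhg11 at 0.0894, nor Snhg11 from Mirg at 0.0543 CPM per kilobase. Rmst was last at 0.0064 CPM per kilobase.

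**Figure D1:**
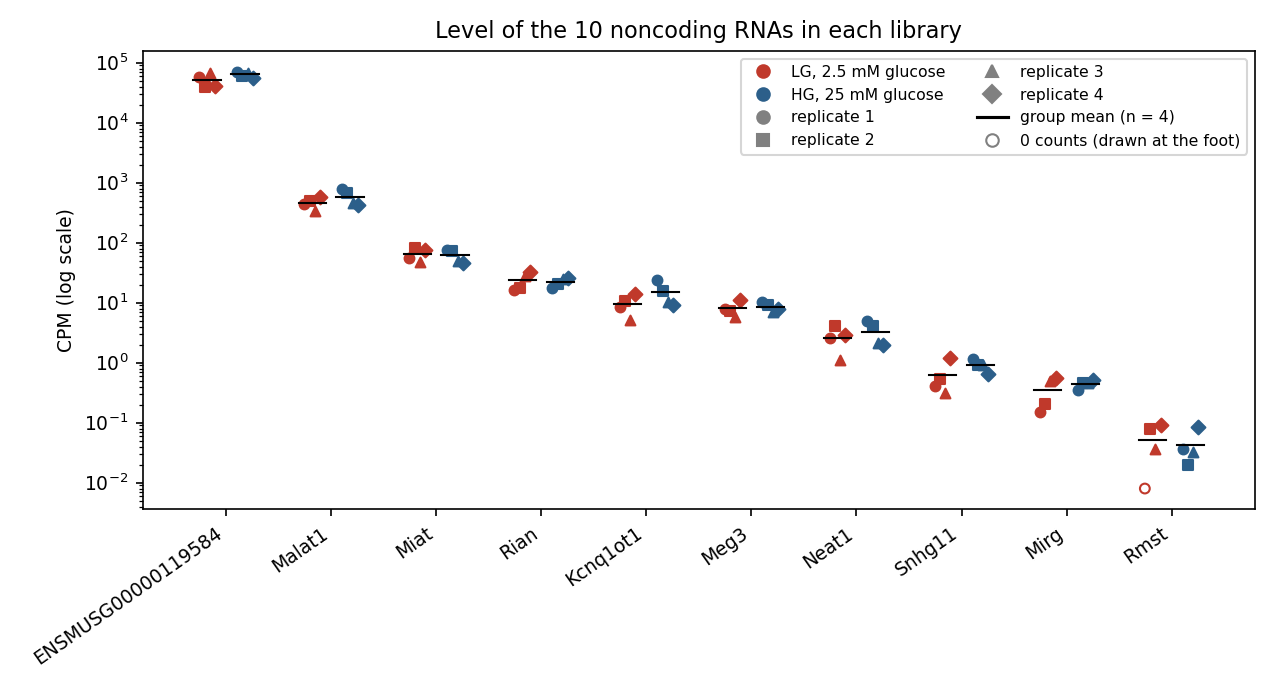
Level of each member in CPM (log axis) in the 8 libraries, with LG libraries to the left of HG libraries for each gene, black lines for group means and an open circle at the foot for 0 counts. The points span from ENSMUSG00000119584, with means of 51770 CPM in LG and 63820 CPM in HG, to Rmst, which had 23 counts over all libraries, and the LG and HG points overlap for every member.

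ENSMUSG00000119584 took a larger part of the counts than any other row, at 5.18% ± 1.33 in LG and 6.38% ± 0.705 in HG (SD, n = 4 each). The annotations used here give this ID no symbol, position, length or gene type, so its name, role and noncoding status could not be checked and no sequence is shown for it. Its mean of 57790 CPM compares with 9564 CPM for the next row, Eef1a1, which encodes a translation elongation factor. The share was 5.81%, 3.99%, 6.75% and 4.15% in LG replicates 1 to 4 and 7.11%, 6.07%, 6.80% and 5.55% in HG replicates 1 to 4. LG replicates 2 and 4 were the lowest of the 8 libraries, LG replicate 3 differed from HG replicate 3 by only -0.048 percentage points, and the groups overlapped. The 95% Wilson interval of each share was at most 0.00682 percentage points to either side, which covers counting error only.

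The mean share differed by -1.205 percentage points (LG minus HG), which was not larger than the spread between libraries (exact permutation test over 70 assignments, two-sided, p = 0.171). The share was lower in LG in all 4 pairs of like number, with differences of -1.30, -2.075, -0.048 and -1.40 percentage points, a pattern shared by 9.74% of tested genes. No other member had it, and 0 members were higher in LG in every pair (12.6% of tested genes). In none of the 9 tested members did the LG and HG libraries separate, a pattern with LG below HG in 1.34% of tested genes and with LG above HG in 1.34%. An exact sign-flip test of the pairs gave p = 0.125, the smallest that 4 pairs allow. Taken per 100 counts of the other tested genes, the row stood at 5.48 ± 1.49 in LG and 6.83 ± 0.806 in HG (exact permutation test, p = 0.171). The genes whose log2 CPM was most like it over the 8 libraries were Gm13479 (Pearson r = 0.98), Lars2 (0.97) and Rpl12-ps1 (0.96). This is a description, since they are the highest r picked from all tested genes with a symbol and the libraries share preparations and depth. Gm13479 and Rpl12-ps1 were rare, at 0.224 and 0.396 CPM. Lars2, which encodes the mitochondrial leucyl-tRNA synthetase, was at 1000, 823, 1310 and 822 CPM in LG and 1192, 1080, 1203 and 1063 CPM in HG. Like the unnamed row, it was lowest in LG replicates 2 and 4. Of a list of 12 genes of structural RNAs or near ribosomal RNA sequence, only 5 were matched by symbol to a row. The others could not be looked up. Of the 5, Lars2 alone was tested, and it did not pass (log2 fold change -0.23 with the block, edgeR adjusted p = 0.326).

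**Figure D2:**
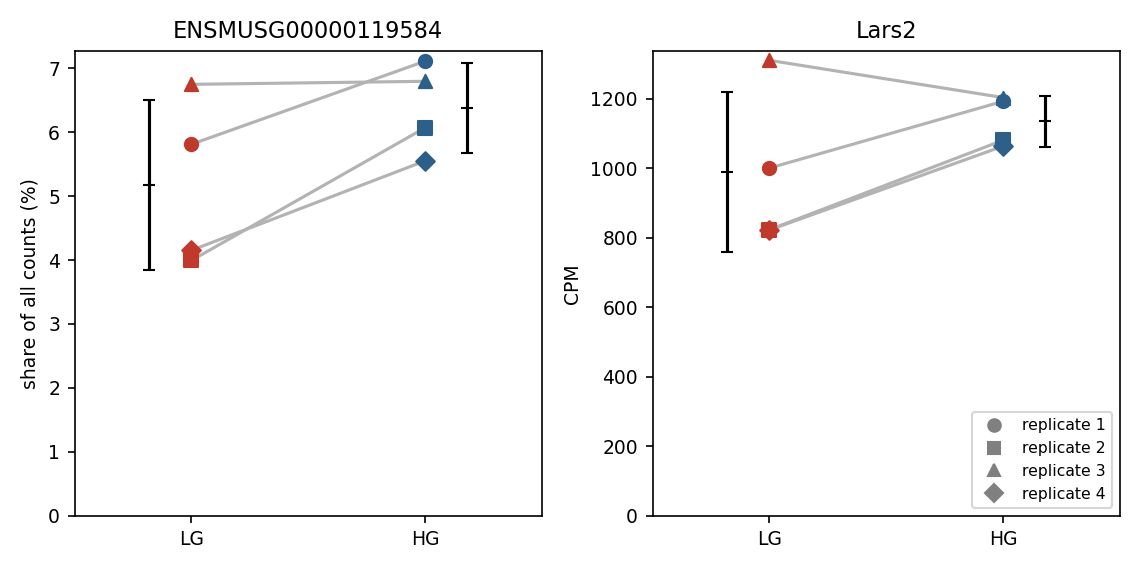
Share of all counts of a library taken by ENSMUSG00000119584, in percent (left), and CPM of Lars2 (right), with LG to the left of HG, grey lines joining libraries of the same number and black bars for the group mean ± SD (n = 4 each). Each line of ENSMUSG00000119584 is lower at its LG end, with differences from -2.075 to -0.048 percentage points, while replicate 3 of Lars2 is higher in LG, at 1310 CPM against 1203 CPM in HG.

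LG was compared with HG across 18905 tested genes by edgeR's quasi-likelihood test. No member passed: 0 of the 9 members that passed the filter on low counts had a Benjamini-Hochberg adjusted p under 0.05, beside 0% of all tested genes, and the smallest adjusted p of any gene was 0.9998. Unadjusted p-values under 0.05 were found for 745 genes and 0 members. By DESeq2 4 genes passed (0.0212%) and by limma-voom 0, with 0 members in each. A fit that took the number as a block called 79 genes (0.418%), of which 58 were lower in LG, and again 0 of 9 members. Unadjusted, the p was under 0.05 for 1 of 9 members and for 2542 of 18905 genes. With offsets for GC content and length beside the block, 249 genes (1.32%) and 0 members passed. Of the 9 members, 7 had negative log2 fold changes of LG over HG both without and with the block, against 48.6% and 49.6% of all tested genes, and their median was -0.32 without and -0.33 with the block, against 0.0051 and 0.0015 for all tested genes. Less RNA per cell and fewer cells that hold an RNA cannot be told apart in these bulk libraries.

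Calls of members depended on the fit. DESeq2 with the block called ENSMUSG00000119584 (log2 fold change -0.33, adjusted p = 0.0128), beside 2.51% of all 18905 genes, those given no adjusted p included. It gave no adjusted p for Neat1, Mirg and Snhg11, and the other members with an adjusted p did not pass. In edgeR with the block and no filter, which tests 34883 rows and was chosen after seeing the data, ENSMUSG00000119584, Malat1 and Kcnq1ot1 were called, beside 2.12% of all rows.

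**Figure D3:**
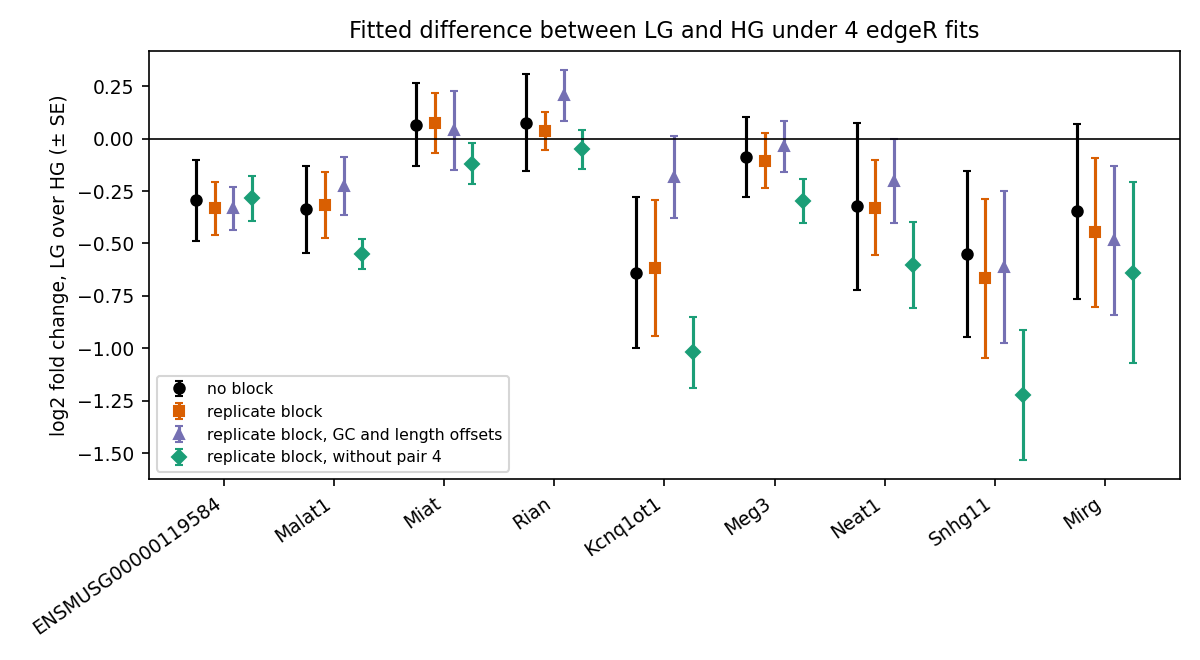
Log2 fold change of LG over HG of the 9 tested members with its standard error, in fits without a block, with the replicate block, with the block and offsets, and with the block without pair 4. Malat1 is at -0.34 without a block, -0.32 with it, -0.23 with the offsets and -0.55 without pair 4. Kcnq1ot1 is at -0.64, -0.62, -0.18 and -1.02 in the same order. Without pair 1, which is not drawn, the block gave -0.16 for Malat1 and -0.30 for Kcnq1ot1.

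Malat1 (ENSMUSG00000092341) lies on GRCm38 chr19:5795690-5802672 on the minus strand. It had 448, 493, 338 and 577 CPM in LG replicates 1 to 4, against 779, 677 and 462 CPM in HG replicates 1 to 3 and 420 CPM in HG replicate 4. LG was lower in pairs 1 to 3 and higher in pair 4, and the groups overlapped. The log2 fold change was -0.34 (SE 0.208) without a block, at 464 ± 99.3 CPM in LG and 584 ± 172 CPM in HG (SD, n = 4 each), and -0.32 (SE 0.159, edgeR adjusted p = 0.433) with it. Without pair 4, the block gave -0.55 (SE 0.0711, edgeR adjusted p = 0.0327), and Malat1 was then 1 of 2 members called, both lower, beside 0.787% of all tested genes. Adding the offsets without pair 4, an alternative chosen after seeing the data, gave -0.42 (edgeR adjusted p = 0.00499), beside 2.44% of all tested genes. The difference was smaller when other libraries were left out. It was -0.16 (edgeR adjusted p = 0.906) with the block without pair 1, -0.16 without HG replicate 1 and no block, and -0.0085 (SE 0.192) with the block without numbers 1 and 2. The most similar genes over the 8 libraries were Zmat1 (r = 0.97), Naa50 (0.97) and Utp14b (0.96), as a description.

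Neat1 (ENSMUSG00000092274), which lies near Malat1 on chr19:5824708-5845478 on the same strand, had few counts in these libraries of an mRNA kit. How well it was captured was not tested. It had 2.54, 4.02, 1.11 and 2.86 CPM in LG and 4.87, 4.15, 2.15 and 1.95 CPM in HG, from 61 to 251 counts per LG library and 116 to 266 per HG library. Its pattern over the pairs was that of Malat1, lower in LG in pairs 1 to 3 and higher in pair 4, and pair 2 differed least. The log2 fold change was -0.32 (SE 0.398) without a block and -0.33 (SE 0.227, edgeR adjusted p = 0.563) with it. With no block it was -0.059 without HG replicate 1 and -0.076 without LG replicate 3, and with the block it was -0.60 without pair 4 and -0.12 without pair 1.

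The genes of protein partners of these nuclear bodies did not pass the same test. All 15 listed paraspeckle proteins were tested, and with the block 11 lay below 0 and 4 above. Their median log2 fold change was -0.02, and 0 passed. The RNA-binding proteins Hnrnpk and Nono were the most counted, at 1052 and 652 CPM, and the largest differences were -0.23 for Zc3h6 and -0.15 for Hnrnpr. Of 14 nuclear speckle proteins, 11 had negative and 3 positive values, with a median of -0.06, and 0 passed. The speckle scaffold genes Srrm2 and Son were at 493 and 466 CPM, and the splicing factor genes Pnn (-0.44, edgeR adjusted p = 0.230) and Luc7l3 (-0.32, edgeR adjusted p = 0.297) differed most. The 9 coding neighbours of Malat1 and Neat1 had 3 negative and 6 positive values, a median of 0.13 and 0 that passed, with Dpf2 and Frmd8 at 124 and 86.8 CPM, Cdc42ep2 at 0.35 and Ltbp3 at 0.23.

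The maternally expressed RNAs of the Dlk1-Dio3 region lie in the same direction on chromosome 12, Meg3 (ENSMUSG00000021268) at chr12:109541001-109571726, Rian (ENSMUSG00000097451) at chr12:109603940-109661716 and Mirg (ENSMUSG00000097391) at chr12:109729764-109749460. They did not share a pattern over the libraries. Meg3 had 7.87, 7.28, 5.86 and 11.2 CPM in LG and 10.2, 9.004, 7.03 and 7.90 CPM in HG, lower in LG in pairs 1 to 3 and higher in pair 4. Rian, the host of a large cluster of C/D box small nucleolar RNAs, had 16.002, 17.8, 27.9 and 32.8 CPM in LG and 17.7, 20.9, 25.1 and 25.8 CPM in HG. Mirg, the host of a microRNA cluster, had 0.149, 0.208, 0.489 and 0.548 CPM in LG and 0.348, 0.452, 0.452 and 0.521 CPM in HG, from 8 to 36 counts per LG library and 19 to 31 per HG library.

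Rian and Mirg parted the libraries by number. For both, all libraries numbered 1 and 2 were below all those numbered 3 and 4, a pattern of 2 of 9 members against 9.30% of tested genes, and 0 members had the reverse, against 12.3%. The pattern was chosen after the values were seen. Between the same libraries the summed astrocyte markers went the other way, as given above, and 6 progenitor markers summed to 5510 to 6870 CPM in numbers 1 and 2 and to 8550 to 9820 CPM in numbers 3 and 4. The part of these cells in the result was not tested. Over the 8 libraries log2 CPM of Rian and Mirg had r = 0.85, while Meg3 had r = -0.04 with Rian and 0.11 with Mirg. The log2 fold changes without a block were -0.09 (SE 0.190) for Meg3, 0.08 (SE 0.232) for Rian and -0.35 (SE 0.418) for Mirg. With the block they were -0.11 (SE 0.131, edgeR adjusted p = 0.769), 0.04 (SE 0.0914, edgeR adjusted p = 0.894) and -0.45 (SE 0.354, edgeR adjusted p = 0.613).

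The small RNAs carried inside these hosts were hardly counted. An mRNA kit captures RNA by its stretches of A, so these counts are not a measure of small RNAs. Reads inside them also overlap the host, and how such reads were assigned is not given in the sources used here. Mirg holds 14 microRNA hairpins listed by RefSeq, Rian 3 and Meg3 1, and 13 small nucleolar RNA genes lie in Rian. Of 14 gene rows of the table that overlap Mirg, 4 had any count, each 1 in all libraries together, and of 11 that overlap Rian, 2 did, with 7 counts for Gm24564 and 5 for Mir1188. Of the other genes of the region, Dlk1 and Begain were tested, at 2.71 and 2.54 CPM with log2 fold changes of 0.02 and -0.30 with the block, and 0 passed. Genes most like Meg3 over the libraries were Gm6645 (r = 0.965, rare at 0.803 CPM), Etfbkmt (0.96) and Larp1b (0.93), as a description.

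Kcnq1ot1 (ENSMUSG00000101609) lies antisense to Kcnq1 at chr7:143203458-143296549 on the minus strand. It had 8.39, 10.9, 5.11 and 14.1 CPM in LG, against 24.3, 15.9, 10.4 and 9.03 CPM in HG. HG replicate 1 was highest and LG replicate 3 lowest, LG was lower in pairs 1 to 3 and higher in pair 4, and the groups overlapped. The log2 fold change was -0.64 (SE 0.361) without a block, at 9.63 ± 3.83 CPM in LG and 14.9 ± 6.92 CPM in HG (SD, n = 4 each), and -0.62 (SE 0.324, edgeR adjusted p = 0.473) with it. With the offsets beside the block it was -0.18 (SE 0.195, edgeR adjusted p = 0.763). Without pair 4 the block gave -1.02 (SE 0.169, edgeR adjusted p = 0.0493), and the offsets then gave -0.44 (edgeR adjusted p = 0.193). Without pair 1 the block gave -0.30 (edgeR adjusted p = 0.890), and without numbers 1 and 2 it gave -0.18. Without HG replicate 1, the highest library, and with no block the value was -0.29. Kcnq1 itself had 9 counts over the 8 libraries.

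Of 13 genes of the Kcnq1ot1 region, 8 were tested and 1 passed with the block, beside 0.418% of all tested genes. It was Cdkn1c, which encodes the cyclin-dependent kinase inhibitor p57. It rose in LG in that fit, with 15.6 ± 3.53 CPM in LG and 10.6 ± 1.81 CPM in HG (SD, n = 4 each) and a log2 fold change of 0.55 (SE 0.0829, edgeR adjusted p = 0.0346), and was higher in LG in 4 of 4 pairs. It did not pass without the block (edgeR adjusted p = 0.9998), nor with the block when pair 1 (edgeR adjusted p = 0.120) or pair 2 (edgeR adjusted p = 0.192) was left out. It also did not pass on sums per preparation with the block (0.52, edgeR adjusted p = 0.0808) or with the preparation as the block (edgeR adjusted p = 0.116). Cdkn1c passed in 9 of 30 settings, among them the block with offsets and DESeq2 with the block, with log2 fold changes from 0.43 to 0.72 over all 30. Of the 8, 3 had negative and 5 positive values, with a median of 0.02. Cd81 and Nap1l4 were the most counted, at 379 and 213 CPM, and Tspan32 was at -0.29. Among 15 tested genes imprinted elsewhere, 8 had negative and 7 positive values, with a median of -0.07, and 0 passed with the block. Nnat and Peg3 were at 545 and 272 CPM, Magel2 was at -0.82 and Zim1 at -0.71. With the offsets beside the block 2 of the 15 passed, both lower, beside 1.32% of all tested genes. Peg3 was 1 of them, at -0.27 (edgeR adjusted p = 0.0377).

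Miat (ENSMUSG00000097767), at chr5:112213228-112229395 on the minus strand, was the member with the second highest level per length. It had 55.6, 80.8, 46.8 and 74.5 CPM in LG and 75.8, 73.4, 50.4 and 45.5 CPM in HG. LG was higher in pairs 2 and 4 and lower in pairs 1 and 3, and the log2 fold change was 0.07 (SE 0.199) without a block and 0.07 (SE 0.143, edgeR adjusted p = 0.864) with it. Gm26953, on the opposite strand, had 91 counts in all.

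Snhg11 (ENSMUSG00000044349), at chr2:158375638-158386145 and typed as protein coding by GENCODE M21, had 0.408, 0.544, 0.308 and 1.22 CPM in LG and 1.14, 0.904, 0.921 and 0.656 CPM in HG, from 17 to 80 counts per LG library and 39 to 62 per HG library. LG replicate 4 was the highest of all and LG replicate 3 the lowest. The log2 fold change was -0.55 (SE 0.396) without a block and -0.67 (SE 0.380, edgeR adjusted p = 0.478) with it, and it did not pass with any pair left out. With the block it was -1.22 (SE 0.309, edgeR adjusted p = 0.0791) without pair 4 and -0.41 without pair 1. It was -0.39 if pair 3 was absent and -0.26 if numbers 1 and 2 were. Rmst (ENSMUSG00000112117), at chr10:92071037-92165170 on the minus strand, did not pass the filter. It had 0, 5, 2 and 6 counts in LG and 2, 1, 2 and 5 in HG, where 3 counts would be 0.0557 CPM in LG replicate 1.

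Host genes of other small nucleolar RNAs and other long noncoding RNAs did not pass this test either. Of 15 tested host genes, 10 lay below 0 and 5 above with the block. Their median log2 fold change was -0.05, and 0 passed. Gas5 and Snhg6 were the most counted, at 110 and 37.6 CPM, Snhg18 was at 0.41 and Snhg14 at -0.24. Of 23 other long noncoding RNAs, 18 had negative and 5 positive values, with a median of -0.06 and 0 that passed. Xist, which silences an X chromosome, was at 489 CPM and 2900097C17Rik at 280 CPM, and 2610307P16Rik (-0.73) and Airn (-0.46), the antisense RNA of Igf2r, differed most.

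Malat1, Neat1, Meg3, Kcnq1ot1 and Snhg11 had a common order over the pairs, lower in LG in pairs 1 to 3 and higher in pair 4. That was 5 of 9 members, against 13.3% of tested genes, and the opposite order was seen in 0 of 9, against 8.70%. These patterns were chosen after the values were seen. In pair 4 alone, 8 of 9 members were higher in LG, against 58.6% of tested genes. In pair 1 it was 0 of 9, against 47.4%, in pair 2 Miat alone, against 50.8%, and in pair 3 Rian and Mirg, against 46.4%. All 5 were lowest in LG replicate 3, where 18.6% of tested genes were. HG replicate 1 was the highest library for ENSMUSG00000119584, Malat1, Neat1 and Kcnq1ot1, as for 19.8% of tested genes, and LG replicate 4 for Meg3, Rian, Mirg and Snhg11, as for 23.5%. Over the 8 libraries log2 CPM of Malat1 had r = 0.98 with Kcnq1ot1, 0.89 with Neat1, 0.80 with Meg3 and 0.78 with Snhg11, as a description of libraries that share preparations and depth, while ENSMUSG00000119584 had r between -0.49 and 0.20 with the other members.

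**Figure D4:**
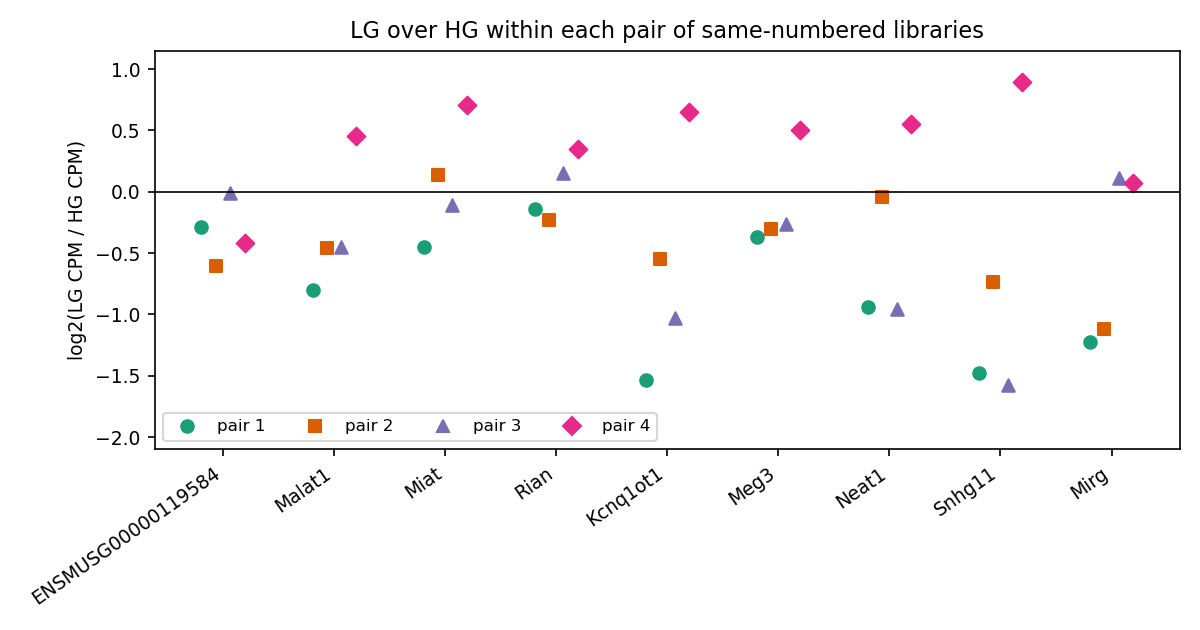
Log2 ratio of LG over HG CPM of each tested member in pairs 1 to 4 (points), with a line at 0. Pair 4 lies above 0 for 8 members and pair 1 below 0 for all 9, from -1.53 for Kcnq1ot1 to -0.14 for Rian.

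The rank correlation of a gene's relative count with its GC content differed between libraries in the same order. It was 0.110, -0.058, 0.275 and 0.119 in LG replicates 1 to 4 and -0.393, -0.197, -0.024 and 0.254 in HG replicates 1 to 4, higher in LG in pairs 1 to 3 and lower in pair 4. Among the 5 members with this order GC content was 42.5% for Malat1, 40.3% for Kcnq1ot1, 44.8% for Snhg11, 47.3% for Neat1 and 49.2% for Meg3. Among those without it, it was 35.8% for Rian, the lowest of the members, 51.9% for Mirg and 55.1% for Miat. With the block, the offsets for GC content and length moved the log2 fold change to -0.23 for Malat1, -0.20 for Neat1, -0.04 for Meg3, -0.18 for Kcnq1ot1 and -0.61 for Snhg11. The same fit gave 0.21 for Rian, against 0.04 without offsets, -0.48 for Mirg and 0.04 for Miat. The part of GC content in the order over the pairs was not tested.

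**Figure D5:**
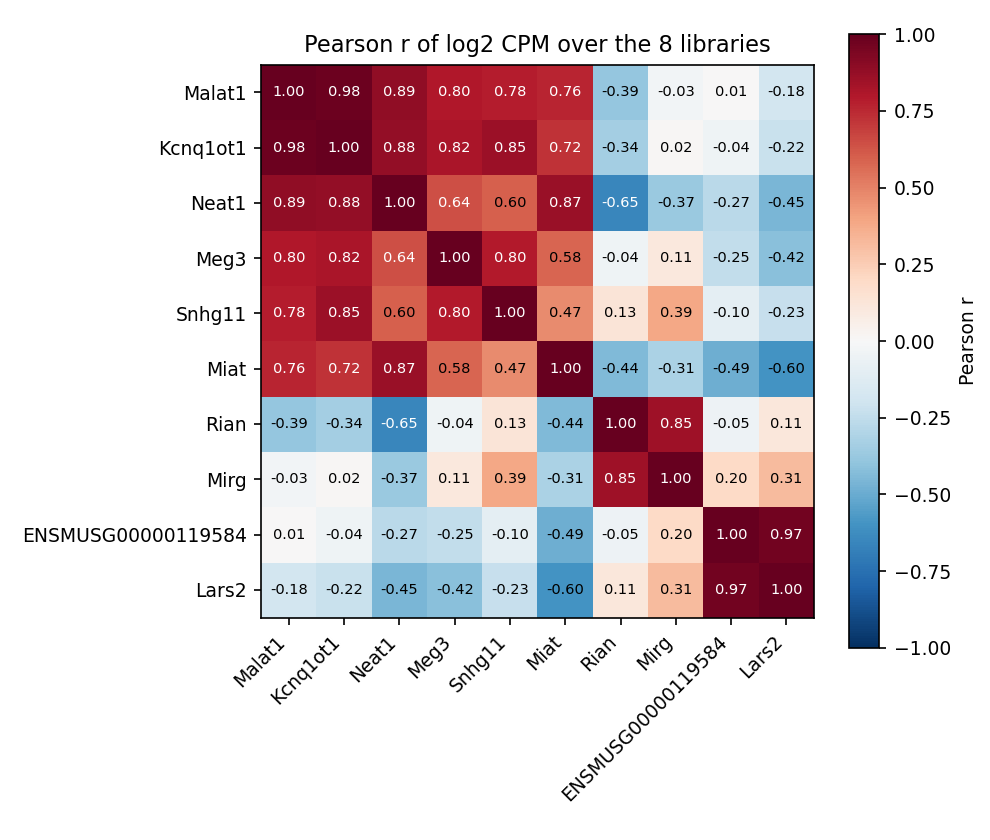
Pearson r of log2 CPM between the tested members, and with Lars2, over the 8 libraries. Malat1 and Kcnq1ot1 have r = 0.98 and Rian and Mirg 0.85, while ENSMUSG00000119584 has r = 0.97 with Lars2 and no more than 0.20 with any other member.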

How the data were processed

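The authors deposited a table of unnormalized read counts, 1 row for each Ensembl gene ID. The submitters' processing notes list mm10 as the build and featureCounts, STAR, CASAVA 1.8.2 and DESeq2 as tools, without saying what each did. For annotation release, strand setting and multiply mapped reads the choice is not given in the sources used here. Reads from overlapping genes on opposite strands may therefore be mixed. Per the labels' protocols, libraries came from 100 ng of total RNA and were read as paired ends of 150 bp.

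The comparison used edgeR 4.0.16 (R 4.3.3) with filterByExpr, which left 18905 genes, TMM scaling and the robust quasi-likelihood test, with Benjamini-Hochberg adjustment over all tested genes and a threshold of 0.05. CPM levels use all counts of a library as the total, and a prior count of 2 was used for log2 CPM in correlations. Each SE was computed as |log2 fold change| over the root of F. GC and length offsets came from a smooth trend per library (mgcv 1.9.3) and were known for 97.5% of tested genes, not for ENSMUSG00000119584. DESeq2 1.42.0 and limma-voom (limma 3.58.1) were alternatives. Symbols and coordinates come from GENCODE M21 (GRCm38), which matched 52125 of 56980 IDs, so the deposited IDs are of another release and gene extents may differ. MicroRNA hairpins come from RefSeq (GRCm38.p6). The fit was also run on simulated counts, in which only well counted genes were changed and each library was drawn on its own. That run does not bear on members with few counts or on shared preparations.

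The titles number the libraries. Deviations from the group means correlated between LG and HG libraries of like number at r from 0.448 to 0.625 across genes. Between unlike numbers r was 0.261 and 0.338 within numbers 1 and 2, 0.399 and 0.419 within numbers 3 and 4, and negative otherwise. The numbers were taken to pair the libraries, but these values set numbers 3 and 4 apart only weakly. The members, lists and alternatives were chosen with earlier results of these data known. Besides the members, the text names from each list the 2 genes with the highest CPM and the 2 with the largest log2 fold change with the block, 3 genes most like each of ENSMUSG00000119584, Malat1 and Meg3, and genes that overlap members. The run of A was not reported for every member.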

Additional observations from a re-analysis of the deposited data

How the results depend on the processing

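In the 29 or 30 settings that gave a value, log2 fold changes were negative for 5 members but spread widely, from -0.47 to -0.18 for ENSMUSG00000119584, -0.55 to -0.0085 for Malat1, -0.60 to -0.059 for Neat1, -1.02 to -0.17 for Kcnq1ot1 and -1.22 to -0.26 for Snhg11. The number of genes called, 0 without a block, was 79 with the replicate block, 249 with the block and GC and length offsets, 83 with TMM without the members and the block, 1 with the preparation as block, 4 by DESeq2 and 474 by DESeq2 with the block. Settings added after seeing the data, each with the replicate block, gave 37 with library totals alone, 739 with no filter, 17 on sums per preparation, 0 without numbers 1 and 2 (555 with an unadjusted p under 0.05) and 459 without pair 4 and with offsets. With the block and a pair left out, 148 genes passed without pair 4, 39 if pair 3 was absent, 6 if pair 1 was and 0 if pair 2 was, against 0 by edgeR with any 1 library left out and no block, where 395 to 1025 genes had an unadjusted p under 0.05. Members called numbered 1 by DESeq2 with the block, 3 with no filter and the block, 2 with the block and pair 4 absent, and 1 when offsets were added to that.

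The share of ENSMUSG00000119584 differed by -1.73 to -0.811 percentage points with a library left out (exact permutation p from 0.0857 to 0.343), and its paired value was -1.205. With the block and without numbers 1 and 2, signs turned for Meg3 (0.12), Mirg (0.078), Tspan32 (0.41) and Dlk1 (-0.22). Offsets turned Hnrnpr to 0.058 with and 0.062 without the block, and Dlk1 to -0.043 with it, and sums per preparation gave -0.042 for Dlk1. The causes were not tested. With 1 library left out and no block, log2 fold changes ran from -0.27 to 0.026 for Meg3, -0.10 to 0.22 for Rian, -0.047 to 0.19 for Miat, -0.19 to 0.33 for Dlk1 and -0.66 to 0.13 for Tspan32. With the block and a pair left out, Rian turned to -0.013 without pair 3 and -0.052 without pair 4, Miat to -0.12 without pair 4 (-0.18 with offsets), Hnrnpr to 0.11 without pair 4 with offsets, Dlk1 to -0.055, -0.068 and -0.017 without pairs 1, 2 and 3, and Tspan32 to 0.071 and Snhg14 to 0.0010 without pair 1. Depth limits Rmst, Mirg and Snhg11, with under 100 counts per library.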
